A study of Mus musculus with 2 samples.

Results

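The cells described here were those of the roof plate and dorsal neural tube in 2 libraries, 1 per genotype, of single cells from whole mouse embryos collected at embryonic day 9.5. Cells were selected on their transcripts, with no clustering. A cell was kept when at least 2 of the dorsal genes Lmx1a, Wnt1, Wnt3a, Gdf7, Olig3, Pax7 and Atoh1 and at least 1 of the neural genes Sox2, Sox3 and Zic1 had a unique molecular identifier (UMI, 1 captured transcript). Cells with a UMI of Meox1 (somite), Trp63 (surface ectoderm) or Tbx6 (presomitic mesoderm) were dropped. Of 28179 cells with 200 to 6000 detected genes, 271 met the rule. They were 82 of 15161 cells in the wild-type library and 189 of 13018 in the Usb1-null library.

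The roof plate is the strip of cells at the dorsal midline of the neural tube. It secretes BMP and Wnt proteins that set the identity of the progenitors beside it, and premigratory neural crest leaves the tube from the same region. Lmx1a and Gdf7 mark the roof plate itself, Wnt1 and Wnt3a are its Wnt signals, Olig3 and Atoh1 mark the dorsal-most progenitors and Pax7 a broader dorsal domain.

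The first library came from wild-type (Usb1+/+) embryos and the second from embryos with a germline knockout of Usb1 (Usb1-/-, here Usb1-null), the gene of a nuclease that trims and matures U6, a small nuclear RNA of the spliceosome. The deletion was made by CRISPR/Cas9 with a pair of guide RNAs at exon 2, exons 1 and 2 are described as deleted, and null embryos came from crosses of heterozygous mice. The sources used here do not give how many embryos went into a library, nor their strain or litters. With 1 library per genotype there was no replicate and no test, and every interval below is a 95% interval for counting error only, which treats UMIs as independent also within 1 cell. The comparison addresses whether loss of Usb1 changed this cell population or its transcripts.

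The deposited barcodes held at least 500 UMIs each, and the libraries differed in depth: the median kept cell had 1243 UMIs in wild-type and 2300 in Usb1-null. Among the selected cells the median was 1838 UMIs (range 656 to 6083) in wild-type and 2903 (610 to 12144) in Usb1-null. Their summed UMIs were 168518 and 622473, so that, in CPM (UMIs per 1000000 UMIs), 1 UMI was worth 5.93 in wild-type and 1.61 in Usb1-null. Over all cells Usb1 itself stood at 3.13 CPM (2.43 to 3.97) for wild-type against 1.41 CPM (1.03 to 1.87) for Usb1-null, and at 2 and 0 UMIs in the selected cells. Reads of this 3′ chemistry may lie outside the deleted part, so this does not check the label. Xist had 462 UMIs in the wild-type and 1 UMI in the Usb1-null selected cells, whereas Ddx3y, Uty, Kdm5d and Eif2s3y of the Y chromosome had 0 and 468 in sum. Embryo sex therefore differed with genotype, and their effects cannot be told apart here. The libraries shared 61 cell barcodes, none of them among the selected cells.

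The label was checked against the markers. Lmx1a (chromosome 1, 167689237 to 167848741, GENCODE annotation of GRCm38) was found in 49 of 82 wild-type and 119 of 189 Usb1-null selected cells, or 59.8% and 63.0%. Wnt1 was found in 40.2% and 49.2%, Wnt3a in 43.9% and 68.8%, Pax7 in 46.3% and 47.6%, and Olig3 in 22.0% and 20.1%. Gdf7 was found in 0 and 6 cells, and Atoh1 in none. A count of 0 among 168518 wild-type UMIs allows up to 21.9 CPM by its exact interval. Gdf7 and Atoh1, of the genes that define the label, were thus at or near 0. Since the rule chose on these genes, their values are a description. Zic1 supplied the neural criterion more often than Sox2: it was found in 53 wild-type and 138 Usb1-null cells, against 36 and 83 for Sox2 and 2 and 10 for Sox3.

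Lmx1a with Wnt3a was found together in 18 wild-type cells (22.0%) and 76 Usb1-null cells (40.2%). Lmx1a with Pax7 was as frequent in wild-type, with 18 cells (22.0%), and less so in Usb1-null, with 45 (23.8%). Wnt1 with Wnt3a was found in 13 (15.85%) and 57 (30.2%). Of the wild-type cells 72 had exactly 2 dorsal genes and 10 had 3. Of the Usb1-null cells 116 had 2, 52 had 3, 17 had 4 and 4 had 5. Just outside the threshold stood 283 wild-type and 348 Usb1-null neural cells with exactly 1 dorsal gene. In each library the median UMIs of the cells with 1 dorsal gene (1593 and 2692) lay above those of cells with none (1403 and 2480).

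The selected cells made up 0.541% (0.430 to 0.671) of the wild-type cells and 1.45% (1.25 to 1.67) of the Usb1-null cells, a ratio of 2.68 (2.06 to 3.52). Detection of a gene rises with the UMIs of a cell, and in both libraries the share was lowest in the shallowest cells and highest in the deepest. At 5000 UMIs and over it was 2.38% (0.290 to 8.34) for wild-type, on 2 of 84 cells, and 3.63% (2.31 to 5.39) for Usb1-null. Among cells with 500 to 1000 UMIs it was 0.141% for wild-type and 0.163% for Usb1-null, the latter on 1 cell. Between 1500 and 2000 UMIs it was 0.856% (0.549 to 1.27) and 1.08% (0.720 to 1.56), and between 2000 and 3000 UMIs 1.40% (0.916 to 2.04) and 1.58% (1.23 to 1.99). Between 3000 and 5000 UMIs it was 1.17% (0.470 to 2.39) and 2.05% (1.57 to 2.62), the wild-type value below that of the bin before. In each of the 6 depth bins the Usb1-null share was the higher one, with ratios from 1.13 to 1.76, and the interval of the ratio included 1 in every bin. With the wild-type spread of cells over the bins given to both libraries, the shares were 0.541% and 0.669%, a ratio of 1.24.

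With each cell thinned to a fixed number of UMIs the ratio depended on that number. At 1000 UMIs, which left out 4973 wild-type and 612 Usb1-null cells, 13 of 10188 wild-type and 35 of 12406 Usb1-null cells met the rule, a ratio of 2.21 (1.14 to 4.55). A second random draw gave 1.47 (0.815 to 2.73). At 1500 UMIs the shares were 0.5425% and 0.549%, a ratio of 1.01 (0.638 to 1.64). Of the neural cells alone, the selected cells were 3.76% (3.004 to 4.65) and 8.34% (7.24 to 9.56), a ratio of 2.22 (1.70 to 2.91), and with cells thinned to 1000 UMIs 2.94 (1.52 to 6.05). Thinning also turned the share of neural cells among all cells, from 14.4% and 17.4% to 11.7% and 8.81%. The ventral neural cells had a ratio of 2.85 (1.67 to 5.07), and of 1.64 (0.235 to 18.2) on 2 and 4 thinned cells. The interval of the ratio at matched depth thus left out 1 in some of these settings and included it in others.

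The level of the dorsal genes over all cells of a library needs no selection of cells. Summed over the 7 genes it was 98.3 CPM (94.2 to 102.5) for wild-type against 95.3 CPM (92.0 to 98.7) for Usb1-null, a ratio of 0.970 (0.918 to 1.025). Lmx1a had 41.4 and 44.0 CPM, with a ratio of 1.06 (0.978 to 1.16). Wnt1 had 12.3 and 12.5 CPM (ratio 1.01, 0.867 to 1.19) and Wnt3a 13.1 and 13.6 CPM (ratio 1.04, 0.892 to 1.21). Olig3 had 4.74 and 5.78 CPM (ratio 1.22, 0.955 to 1.57). Pax7 was the exception, with 26.4 CPM (24.3 to 28.7) for wild-type against 19.1 CPM (17.6 to 20.6) for Usb1-null, a ratio of 0.722 (0.644 to 0.810). Only 8.36% of the Pax7 UMIs of the wild-type library and 20.7% of those of the Usb1-null library lay in the selected cells. Of all UMIs of the 7 genes, 12.9% and 25.1% lay there.

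**Figure D1:**
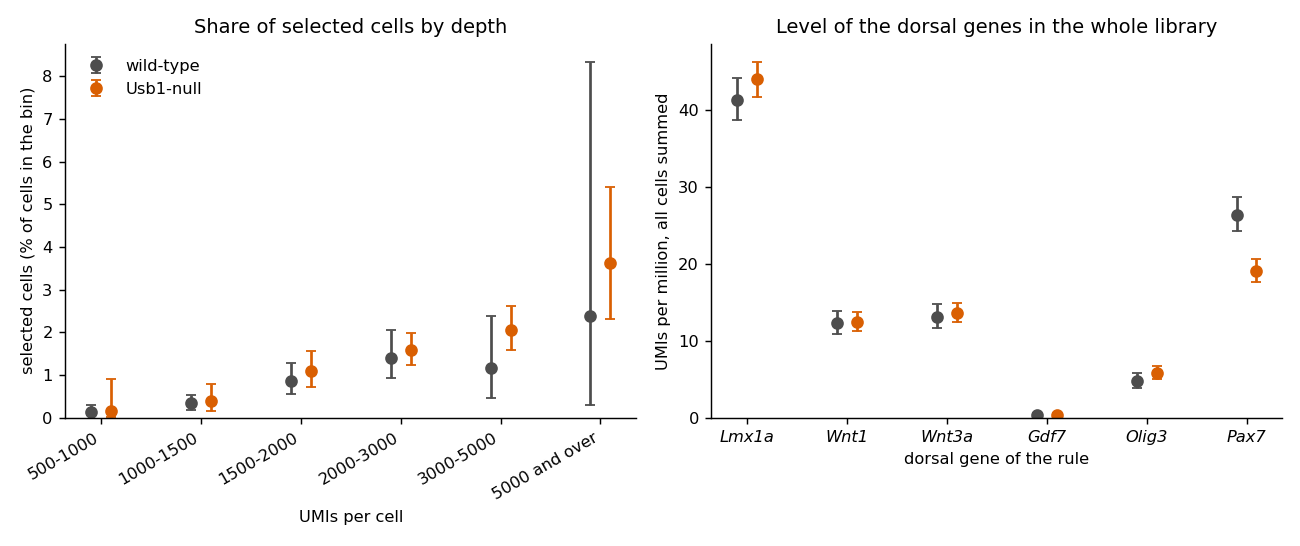
Left, share of cells that met the rule (percent of the cells in each bin of UMIs per cell) in the wild-type (grey) and Usb1-null (orange) library, with exact binomial 95% intervals. Right, level of 6 dorsal genes over all cells of each library in CPM with exact Poisson 95% intervals. The share is lowest in the shallowest and highest in the deepest bin of both libraries, with a dip in wild-type at 3000 to 5000 UMIs. The deepest wild-type value rests on 2 of 84 cells. The intervals of the libraries overlap within each bin, and only Pax7 has whole-library intervals that do not overlap.

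The rule genes were also found in cell types that should lack them, and whether from free RNA, doublets or the cells themselves was not tested. Lmx1a had a UMI in 1.60% of wild-type and 2.30% of Usb1-null endothelial cells (689 and 784 cells, median 1531 and 2656 UMIs), and in 1.69% and 3.51% of cardiomyocytes (650 and 485 cells, median 1517 and 2835 UMIs). The whole rule was met by 0 of 689 wild-type endothelial cells, where 3 cells would be 0.435% and the exact upper bound is 0.534%, and by 6 of 784 Usb1-null endothelial cells (0.765%, 0.281 to 1.66). It was met by 0 of 650 wild-type cardiomyocytes, where 3 cells would be 0.462% and the exact upper bound is 0.566%, and by 3 of 485 Usb1-null cardiomyocytes (0.619%, 0.128 to 1.80). The Usb1-null share of 1.45% thus stood above both background shares, within the upper bound of each interval, and the wild-type share of 0.541% lay between the exact upper bounds of its endothelial cells and cardiomyocytes. Endothelial cells and cardiomyocytes were here the cells with 2 or more of Pecam1, Cdh5, Kdr, Tek and Cldn5, or of Myh6, Myh7, Tnnt2, Nppa and Myl7. No wild-type and 8 Usb1-null selected cells were among them, and without them the ratio of shares was 2.60 (1.99 to 3.41). By the wider lists of 8 endothelial and 9 cardiomyocyte genes, 72 wild-type and 174 Usb1-null selected cells remained, with a ratio of 2.85 (2.16 to 3.81).

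Markers of other cell types were followed as fixed lists. The tailbud list summed to 53.4 and 53.01 CPM, against 47.1 and 55.7 CPM in other neural cells. Of its 11 genes 8, among them T, Cdx1, Cdx2 and Cdx4, were at 0 in both libraries, and Fgf8, Fgf17 and Sp5 were not. The surface ectoderm list summed to 189.9 and 139.8 CPM, against 164 and 127.5 CPM in other neural cells. Of its 12 genes Krt5, Krt14, Krt19 and Grhl3 were at 0, while Tfap2c, which surface ectoderm expresses, was 6.26-fold (2.57 to 13.9) and 3.93-fold (1.78 to 8.23) above other neural cells on 9 and 12 UMIs. The somite list summed to 231 and 156 CPM, below the 381 and 361 CPM of the other neural cells. The neural crest list of 15 genes stood at 1584 and 1391 CPM, against 1078 and 1114 CPM in other neural cells. Its level came mostly from the cadherins Cdh6 (801 and 628 CPM) and Cdh11 (510 and 524 CPM), whereas the migrating crest genes Sox10 (3 and 4 UMIs), Foxd3 (2 and 2 UMIs) and Snai2 (0 UMIs) were at or near 0. The otic list stood at 843 and 872 CPM, against 561 and 579 CPM in other neural cells. Eya4 gave 570 and 575 CPM of it and Eya1 130.5 and 124 CPM, and Pax8, on 9 and 40 UMIs, was 3.01-fold (1.30 to 6.17) and 1.71-fold (1.18 to 2.425) above other neural cells, while Tbx1 (0 and 2 UMIs) and Oc90 (2 and 0 UMIs) of the otic vesicle were at or near 0. The erythroid list differed between the libraries, with 386 CPM (298 to 492) for wild-type against 69.1 CPM (49.99 to 93.05) for Usb1-null selected cells, as it did over all cells (876 and 220.1 CPM). So did the cardiomyocyte list, with 303 CPM (225 to 398) against 120.5 CPM (94.8 to 151), and 2 or more of its genes in 9 (10.98%) and 6 (3.175%) selected cells. Over all cells it stood at 801 and 605 CPM. The endothelial list stood at 101 and 106 CPM. The part of these other genes in the results below was not tested. Scrublet called 9 of the 82 wild-type and 11 of the 189 Usb1-null cells doublets.

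The selected cells were next set against the other neural cells of the same library, which had a UMI of Sox2, Sox3 or Zic1 and none of the 7 dorsal genes (1814 wild-type and 1728 Usb1-null cells). This describes what the selected cells carry beyond the genes that chose them, in 2 libraries side by side. Of 7382 genes outside the rule with at least 20 UMIs, 3.18% were past 1.5-fold higher and 1.98% past 1.5-fold lower in both libraries. Genes higher in both included members of the dorsal transcription factors, BMP ligands, Wnt ligands and R-spondins, and genes lower in both included ventral ones. The minimum of 20 UMIs was set on the selected cells, so a list is described here by its members' values, without a count of calls or a median.

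Among the dorsal transcription factors, Pax3, which specifies dorsal progenitors and neural crest, was the most abundant. It had 1211 CPM in wild-type selected cells against 368 CPM in other neural cells, 3.29-fold (2.82 to 3.82). In Usb1-null it had 1083 against 305 CPM, 3.55-fold (3.235 to 3.89). Pax3 was found in 69.5% and 83.1% of the selected cells and is not a gene of the rule.

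Msx1, a homeobox target of BMP signalling, had 125 against 42.3 CPM in wild-type (2.95-fold, 1.76 to 4.70) and 116 against 30.5 CPM in Usb1-null (3.79-fold, 2.82 to 5.07). Zic5 was 3.30-fold (1.77 to 5.78) and 3.41-fold (2.32 to 4.94) higher, and Zic2 4.35-fold (2.29 to 7.755) and 2.38-fold (1.54 to 3.60), both zinc-finger genes of the dorsal neural tube. Pax6, which is expressed in progenitors further from the dorsal midline, was lower, with 101 against 195.5 CPM in wild-type (0.516-fold, 0.299 to 0.834) and 98.0 against 168 CPM in Usb1-null (0.5825-fold, 0.441 to 0.756). Of 24 dorsal transcription factors listed, 11 reached 20 UMIs.

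In the BMP pathway a ligand and a BMP-binding protein had the highest ratios of the genes with 20 UMIs. Bmp6 had 166 CPM in wild-type selected cells against 20.5 CPM in other neural cells (8.12-fold, 4.99 to 12.9), and 98.0 against 16.4 CPM in Usb1-null (5.97-fold, 4.19 to 8.46). Bmper, which encodes an extracellular BMP-binding protein, had 119 against 22.9 CPM (5.19-fold, 2.98 to 8.66) and 173.5 against 24.5 CPM (7.075-fold, 5.39 to 9.28). The Id genes, direct targets of BMP receptors, were higher by less: Id1 2.05-fold (1.41 to 2.90) and 2.24-fold (1.89 to 2.66), Id2 1.65-fold and 1.85-fold, and Id3 1.77-fold and 1.73-fold. Nog, an inhibitor of BMP ligands, rested on only 4 and 10 UMIs. Bmp7, a further ligand, was 2.21-fold (0.914 to 4.62) and 1.32-fold (0.673 to 2.405), and both intervals included 1. The receptor gene Bmpr1a was 1.16-fold (0.9055 to 1.47) and 1.23-fold (1.08 to 1.39).

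Among Wnt ligands and the R-spondins, secreted amplifiers of Wnt signalling, Wnt9a had the highest ratio of those with 20 UMIs. It had 65.3 against 2.73 CPM in wild-type (23.9-fold, 8.76 to 68.5) and 36.95 against 1.49 CPM in Usb1-null (24.75-fold, 10.3 to 68.3), on 11 and 23 UMIs. Wnt3 was 12.65-fold (4.42 to 34.5) and 5.82-fold (2.90 to 11.5) higher on 8 and 17 UMIs. Rspo1 was 5.67-fold and 3.77-fold higher, Rspo2 4.49-fold and 2.98-fold, and Rspo3 2.98-fold and 3.98-fold, with all 6 intervals above 1. Wls, the carrier that brings Wnt proteins to the cell surface, was broadly present, in 79.3% and 90.5% of the selected cells. It had 825 against 335 CPM in wild-type (2.47-fold, 2.05 to 2.95) and 914 against 343 CPM in Usb1-null (2.66-fold, 2.42 to 2.93).

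Of 17 Wnt ligand and secretion genes listed, 10 reached 20 UMIs. Wnt5b did not stand apart, at 0.847-fold (0.575 to 1.21) and 0.9996-fold (0.821 to 1.21). Some genes that respond to Wnt signalling were higher by less: the feedback inhibitor Axin2 was 1.84-fold (1.03 to 3.09) and 2.36-fold (1.815 to 3.05) higher, and Nkd1 2.13-fold (1.32 to 3.29) and 2.48-fold (1.89 to 3.225). Draxin, an axon guidance gene of the dorsal neural tube that also inhibits Wnt signalling, was 3.82-fold (2.23 to 6.255) and 4.09-fold (2.91 to 5.70) higher. Among receptors Ror1 was 1.92-fold (1.595 to 2.295) and 2.28-fold (2.07 to 2.50) higher.

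Other genes ranked among the 10 highest by the smaller of both ratios. March1, a ubiquitin ligase gene, was 14.9-fold (7.49 to 29.4) and 24.8-fold (16.0 to 39.8) higher, and Mapk10, a Jun kinase gene, 5.87-fold and 5.78-fold. The zinc-finger genes Casz1 (5.72-fold and 4.44-fold) and Glis3 (5.66-fold and 4.10-fold) followed. Cdon, the gene of a cell-surface co-receptor of Hedgehog ligands, had 991 and 1035 CPM in wild-type and Usb1-null selected cells, against 252 and 197 CPM in other neural cells (3.94-fold, 3.31 to 4.66, and 5.26-fold, 4.75 to 5.83). Egfem1 (5.23-fold and 10.7-fold), Agbl1 (6.26-fold and 11.8-fold) and the unnamed gene Gm29266 (3.96-fold and 4.51-fold) completed the set.

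The 13 ventral genes listed, with no minimum, summed in the selected cells to 445 CPM (350.1 to 558) for wild-type against 532 CPM (476 to 592) for Usb1-null. In the other neural cells they summed to 1254 and 1420 CPM. Ntn1, the floor plate guidance cue netrin 1, had 89.0 against 388.5 CPM in wild-type (0.229-fold, 0.128 to 0.3795) and 81.9 against 344 CPM in Usb1-null (0.238-fold, 0.1765 to 0.315). Ptch1, the Hedgehog receptor that is also a Hedgehog target, was 0.483-fold (0.345 to 0.658) and 0.391-fold (0.333 to 0.456), and Spon1, a floor plate gene, 0.383-fold (0.213 to 0.636) and 0.478-fold (0.372 to 0.606). Nkx6-1 had 1 and 5 UMIs and Shh 0 and 6 UMIs. Rnf220, a ubiquitin ligase gene, was also among the lowest, with 208 and 239 CPM against 898.5 and 826.5 CPM, although it was chosen after its values were seen. Against the 20 wild-type and 49 Usb1-null cells with 2 or more ventral genes, Pax3 had 1211 against 40.7 CPM and 1083 against 6.27 CPM. In so few cells these ventral values rest on very few UMIs, and no size of ratio is read from them.

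**Figure D2:**
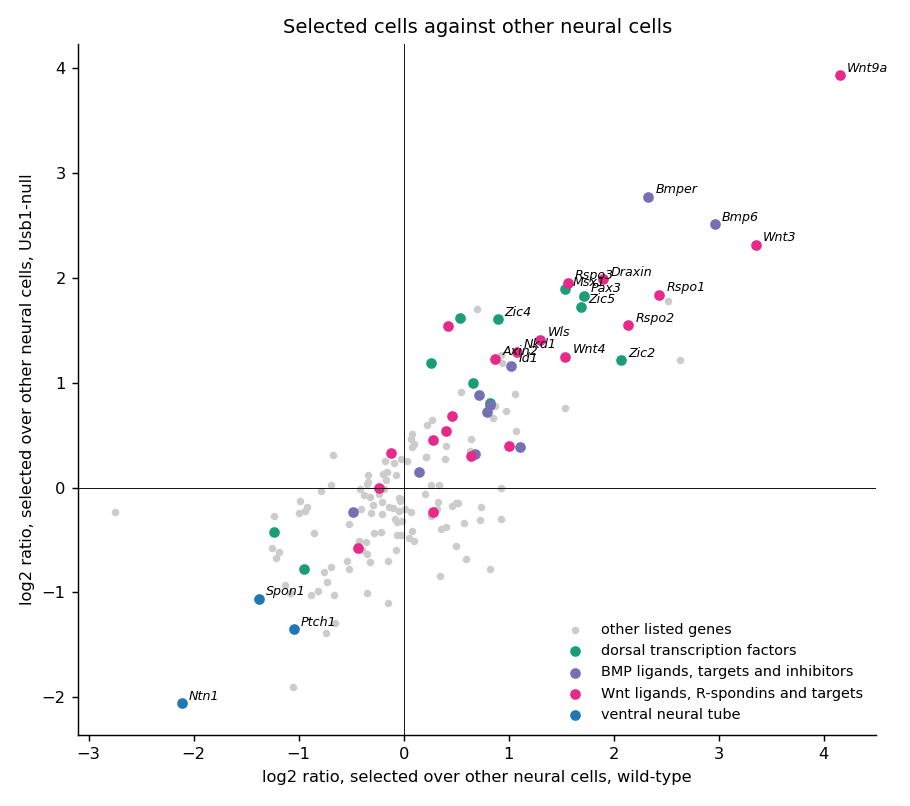
Each point is a listed gene outside the rule with at least 20 UMIs in selected cells, placed by its log2 ratio of selected over other neural cells in wild-type (horizontal) and in Usb1-null (vertical), with 1 CPM added. Dorsal, BMP and Wnt genes reach the upper right, led by Wnt9a at 4.15 and 3.93, and Ntn1, Ptch1 and Spon1 lie in the lower left.

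Several of these genes followed the number of dorsal genes found in a cell, up to 2. Pax3 stood at 368, 812.5 and 1185 CPM in wild-type neural cells with 0, 1 and 2 dorsal genes, and at 305, 746 and 1086 CPM in the Usb1-null ones. Cdon stood at 252, 658 and 947 CPM in wild-type and at 197, 487 and 941 CPM in Usb1-null. Ntn1 went the other way, at 388.5, 232 and 102 CPM and at 344, 183.5 and 53.1 CPM. The cells just outside the threshold thus lay between the other neural cells and the selected ones for these 3 genes in both libraries. With 3 or more dorsal genes Pax3 had 1383 CPM (933 to 1974) in 10 wild-type cells and 1079 CPM (962 to 1207) in 73 Usb1-null cells. Ptch1 turned upward there, from 197.5 CPM (132 to 284) at 2 to 553 CPM (286 to 966) at 3 or more in wild-type, and from 189 CPM (145 to 241) to 370.3 CPM (303 to 448) in Usb1-null. Ntn1 was at 0 UMIs in those wild-type cells and at 116 CPM (80.1 to 163) in the Usb1-null ones. Not every gene was graded: Axin2 stood at 51.5, 41.6 and 95.35 CPM in wild-type and Zic2 at 20.9, 28.1 and 23.6 CPM in Usb1-null for 0, 1 and 2 dorsal genes. Another 113 wild-type and 166 Usb1-null cells had 2 or more dorsal genes and no UMI of Sox2, Sox3 or Zic1. Without the dropped genes these were 112 and 159 cells, which carried Pax3 at 1628 CPM (1451 to 1820) and 1140 CPM (1042 to 1244) and Wls at 904 and 831 CPM. The neural criterion thus also left out cells with Pax3 and Wls above the level of the other neural cells.

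**Figure D3:**
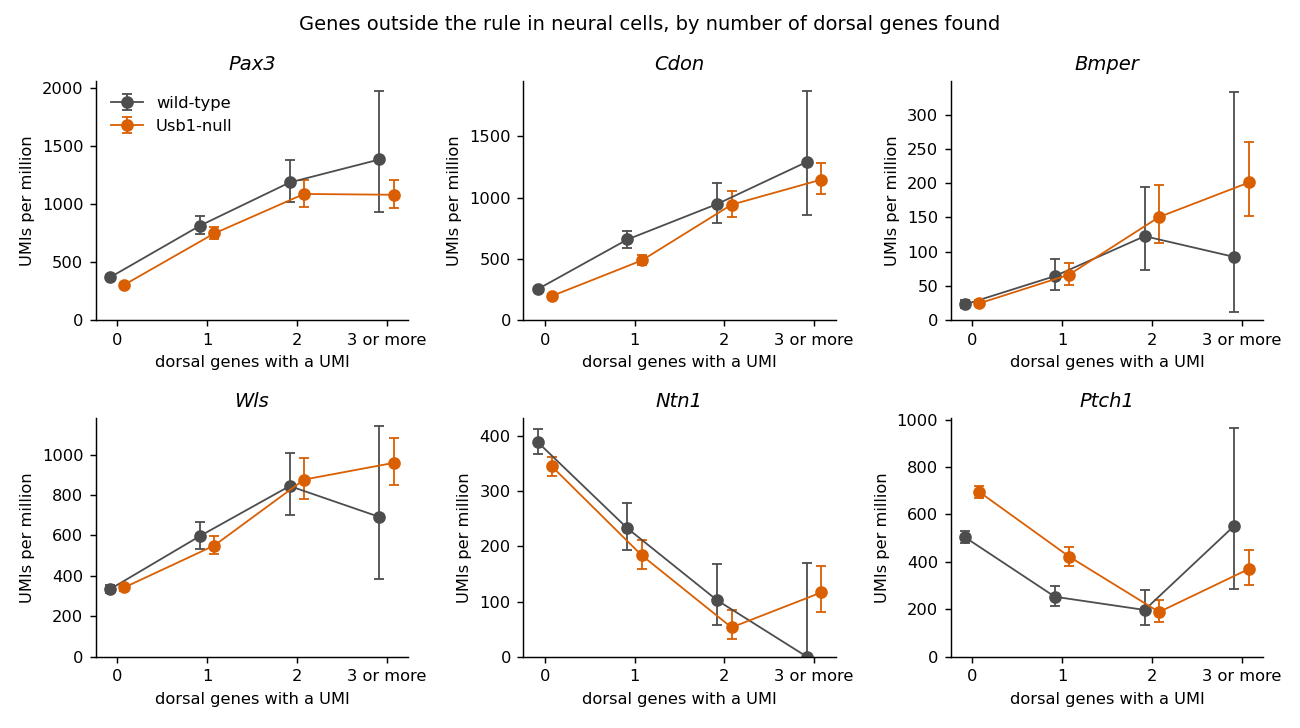
Level of 6 genes outside the rule in CPM (vertical axes) in neural cells grouped by the number of dorsal genes with a UMI (horizontal axes), in wild-type (grey) and Usb1-null (orange), with exact Poisson 95% intervals. Pax3, Cdon, Bmper and Wls rise from 0 to 2 dorsal genes and Ntn1 and Ptch1 fall, in both libraries, and Ptch1 is higher again at 3 or more.

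The selected cells were divided by which dorsal genes of the rule were found in them, and whether these classes are kinds of cell was not tested. By detection, 49 wild-type (59.8%, 48.3 to 70.4) and 119 Usb1-null cells (63.0%) had Lmx1a or Gdf7, 13 (15.9%) and 18 (9.52%) had Olig3 without these, and 20 (24.4%) and 52 (27.5%) had only Wnt1, Wnt3a or Pax7. The shares of each class overlapped between the libraries within their intervals. A cell placed outside the Lmx1a class may still have held the transcript, since detection depends on depth.

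Some genes outside the rule had different levels in these classes, and they were chosen for it. Bmper had 178.5 CPM (107.5 to 279) in wild-type cells of the Lmx1a class and 243 CPM (197 to 296) in the Usb1-null ones, against 0 UMIs in the Olig3 class of either library and 25.7 and 60.4 CPM in the third class. Rspo3 had 254 and 156 CPM in the Lmx1a class, 0 UMIs in the Olig3 class of both and 77.2 and 18.1 CPM in the third. Rspo2 had 272.5 and 131 CPM, then 0 UMIs in both, then 77.2 and 36.2 CPM. The Olig3 class was small, so that 0 UMIs allowed up to 159 and 68.8 CPM, respectively. Bmp6 was highest in the Lmx1a class too, at 207 CPM (129.5 to 313) and 136 CPM (103 to 177.5), as was the cadherin gene Cdh11 at 639 and 657 CPM. Axin2 did not divide between the Lmx1a class and that with Wnt1, Wnt3a or Pax7 only, at 103.4 and 102.9 CPM in wild-type and 133.9 and 138.9 CPM in Usb1-null. Bmp5 had 131.5 against 25.7 CPM in these classes in wild-type and 116.5 against 96.6 CPM in Usb1-null. Pax3 was found in all classes, at 1381, 1077 and 823 CPM in wild-type and at 1225, 951 and 779 CPM in Usb1-null. Dkk2, which encodes a secreted Wnt antagonist, had 12 UMIs in the Lmx1a class of wild-type and 10 in that of Usb1-null, and 0 and 1 UMI in the rest.

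Position along the body axis was read from Otx2, which marks the forebrain and midbrain, and from the Hox genes, which mark hindbrain and spinal cord. Otx2 without a Hox gene was found in 11 wild-type (13.4%, 6.89 to 22.7) and 36 Usb1-null cells (19.05%). Hox genes of groups 1 to 3 without later groups were found in 12 (14.6%) and 46 (24.3%), and Hox groups 4 to 13 in 26 (31.7%) and 53 (28.0%). Neither was found in 33 (40.2%) and 54 (28.6%). The Usb1-null library had the smaller share with neither also among the other neural cells (44.0% and 33.8%), and with those thinned to 1000 UMIs the shares were 51.2% and 53.8%. Among the selected cells so thinned, 13 in wild-type and 35 in Usb1-null, the order turned, with neither in 38.5% and 57.1% and Hox groups 1 to 3 in 15.4% and 11.4%, so no order between the libraries is read from these shares. Cells with anterior and cells with posterior genes were thus found among the selected cells of both libraries. Otx2 and a Hox gene were found together in 3 and 13 cells.

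Some genes had different levels in the position classes, and those named here were chosen for it after their values were seen. Rspo2 had 705 CPM (418 to 1115) in the Otx2 cells of wild-type and 224 CPM (148 to 326) in those of Usb1-null, against 16.4 and 25.8 CPM in the cells with Hox groups 4 to 13. Pax5, a gene of the midbrain and its boundary with the hindbrain, had 235 and 399 CPM in the Otx2 cells, against 32.8 and 46.45 CPM. Wnt8b, expressed in the dorsal forebrain, had 274 and 91.4 CPM in the Otx2 cells, against 0 and 41.3 CPM. Wnt5b, a further Wnt ligand, had 509.5 and 382 CPM, against 98.4 and 196 CPM. Pax3 was present at all positions, and among cells with Hox groups 4 to 13 it had 1919 CPM (1587 to 2300) for wild-type against 1264 CPM (1111 to 1433) for Usb1-null.

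**Figure D4:**
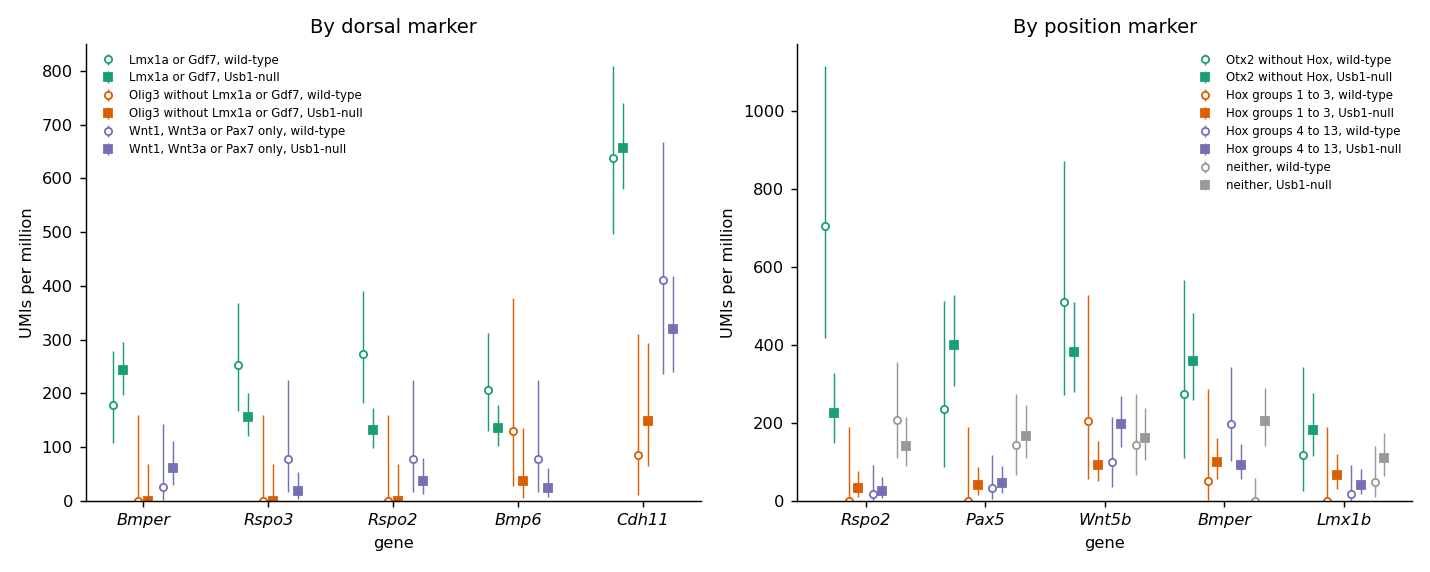
Level in CPM of genes outside the rule in the selected cells, by dorsal marker class (left) and by position class (right). Open circles are wild-type, filled squares Usb1-null, and bars are exact Poisson 95% intervals. Bmper, Rspo3 and Rspo2 sit in the Lmx1a class with 0 UMIs in the Olig3 class, and Rspo2 and Pax5 are highest in the Otx2 cells of both libraries.

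Usb1-null and wild-type selected cells were then compared gene by gene. Of 2081 genes that reached 100 UMIs in the libraries together, 8.02% were past 1.5-fold higher in Usb1-null and 6.1% past 1.5-fold lower, and the median log2 ratio was 0.04. Among the 7389 genes with at least 20 UMIs the shares were 16.4% and 14.4%. For 351 of the 2081 genes the interval of the ratio left out 1.

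Pax3 had 1211 and 1083 CPM in wild-type and Usb1-null, a ratio of 0.894 (0.764 to 1.05). Msx1 had 125 and 116 CPM (ratio 0.928, 0.564 to 1.59), Wls 825 and 914 CPM (1.11, 0.919 to 1.34), Cdon 991 and 1035 CPM (1.04, 0.879 to 1.245) and Eya4 570 and 575 CPM (1.01, 0.804 to 1.28). For Pax3, Wls and Cdon the intervals lie within 1.5-fold in either direction. They cover counting error only, and with 1 library per genotype they cannot exclude a change between genotypes. Among the 11 dorsal transcription factors the median log2 ratio was -0.04, with 3 past 1.5-fold higher and 2 past it lower, beside the 16.4% and 14.4% of all genes. Only Lmx1b, a paralogue of Lmx1a expressed at the midbrain boundary and in the roof plate, had an interval that left out 1 among these, with 41.5 CPM on 7 UMIs and 91.6 CPM on 57 UMIs (ratio 2.20, 1.004 to 5.73).

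Several BMP and Wnt ligands and R-spondins had lower levels in the Usb1-null cells. Bmp6 had 166 and 98.0 CPM, a ratio of 0.590 (0.371 to 0.958). Bmp5 had 89.0 and 104 CPM (1.17, 0.662 to 2.215). Rspo2 had 189.9 and 94.8 CPM (0.499, 0.319 to 0.793) and Rspo3 178 and 106 CPM (0.596, 0.381 to 0.950). The intervals of Rspo1 (0.5775, 0.304 to 1.15), Wnt9a (0.566, 0.265 to 1.29) and Wnt3 (0.575, 0.235 to 1.54) included 1. The median of 10 Wnt ligand and secretion genes was -0.61 on the log2 scale, with 5 past 1.5-fold lower and none higher where all genes with 20 UMIs had 14.4% and 16.4%, and that of 3 BMP ligands was -0.76, against 0.02 over all genes with 20 UMIs. With at least 3 of the 7 dorsal genes the Wnt median was -0.06, and over members with at least 50 UMIs it was -0.34. Of the rule genes in the selected cells, Lmx1a had 659 and 488 CPM, Wnt1 285 and 198 CPM, Olig3 125 and 69.1 CPM, Pax7 285 and 212 CPM and Wnt3a 279 and 304 CPM. The cells were chosen on these genes at unequal depth, so these levels are a description from which no difference is read. The whole-library ratios of Lmx1a (1.06), Wnt1 (1.01) and Wnt3a (1.04) were near 1, with 1.22 for Olig3 and 0.722 for Pax7, and the part of the selection in the levels of the rule genes and of the ligands was not tested. Over all cells of the libraries the log2 ratios were -0.50 for Rspo2, -0.35 for Rspo3 and -0.18 for Bmp6. In the other neural cells they were -0.40, -1.13 and -0.30. There Rspo3 had 59.7 CPM (51.2 to 69.2) and 26.65 CPM (22.2 to 31.8), while the intervals of Bmp6, 20.5 CPM (15.6 to 26.35) and 16.4 CPM (12.96 to 20.5), overlapped.

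Genes downstream of these ligands lay on both sides. Id1 had 214 and 283 CPM (ratio 1.32, 0.9205 to 1.95), Id2 189.9 and 196 CPM (1.03, 0.6945 to 1.575) and Id3 350.1 and 310.1 CPM (0.886, 0.6585 to 1.21). Bmper had 119 and 173.5 CPM (1.46, 0.9015 to 2.49), and the median of 7 BMP target and inhibitor genes was 0.28. Bmpr2, a BMP receptor, had 160.2 and 297 CPM (1.855, 1.23 to 2.89), while Bmpr1a had 439 and 451 CPM (1.03, 0.793 to 1.35). In other neural cells Bmpr2 had 260 and 292 CPM. Axin2 had 94.95 and 128.5 CPM (1.35, 0.785 to 2.48) and Nkd1 136.5 and 122 CPM (0.895, 0.555 to 1.495). Lef1, a transcription factor of the Wnt pathway, had 225.5 and 328 CPM (1.45, 1.02 to 2.11). Dkk2 had 71.2 and 17.7 CPM on 12 and 11 UMIs (0.248, 0.0992 to 0.614), and 35.1 and 13.2 CPM in other neural cells. Its UMIs came from only 4 wild-type and 6 Usb1-null selected cells. Sfrp2, another secreted Wnt antagonist, had 148 and 85.1 CPM (0.574, 0.3504 to 0.964). Of 10 Wnt target and inhibitor genes 3 had a higher and 7 a lower level in Usb1-null, 1 past 1.5-fold higher and 2 lower (16.4% and 14.4% of all genes), with a median of -0.19. The median of 14 receptors and transducers was 0.13.

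**Figure D5:**
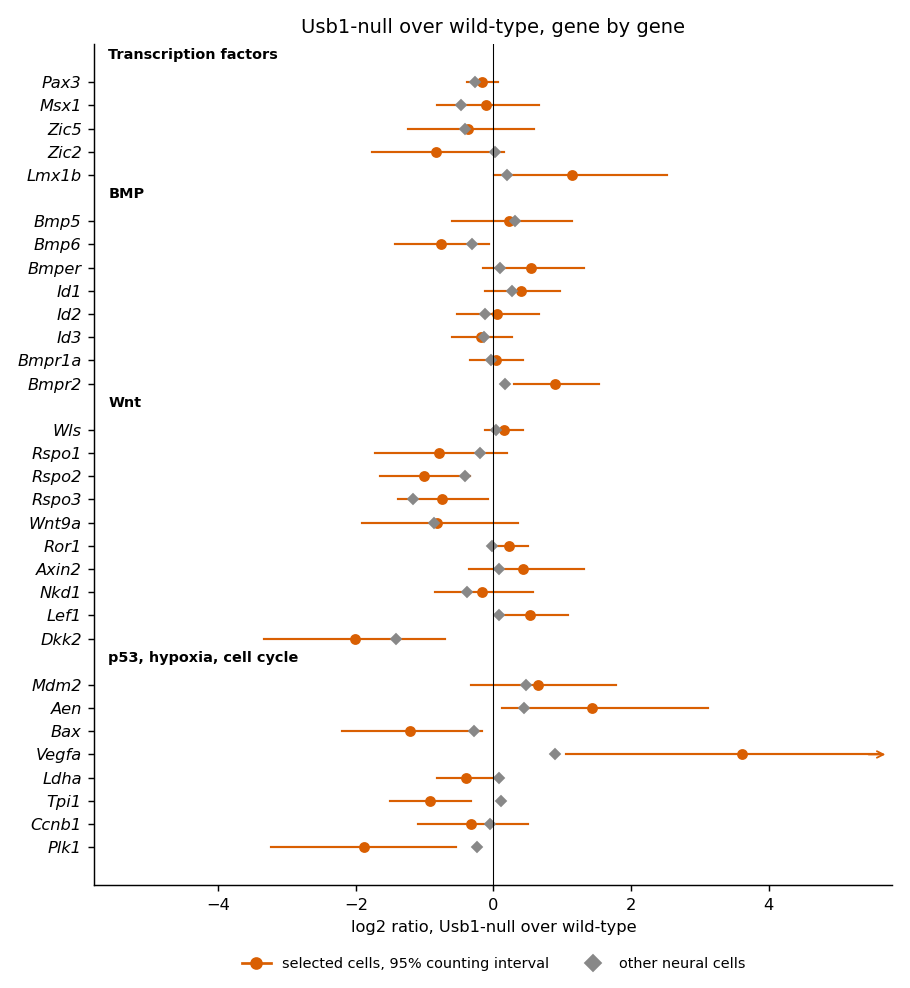
Log2 ratio of Usb1-null over wild-type for named genes of 4 groups in the selected cells (orange, with 95% counting intervals) and in the other neural cells (grey diamonds). Most intervals include 0, those of Bmp6, Rspo2, Rspo3, Dkk2, Bax, Tpi1 and Plk1 lie below it, and those of Lmx1b, Bmpr2, Lef1, Aen and Vegfa above it. The arrow marks the interval of Vegfa, which rests on 1 wild-type UMI and runs past the axis. The value of Dkk2 rests on 4 wild-type and 6 Usb1-null cells.

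Among genes of stress and growth, 24 p53 targets were listed and 9 had at least 20 UMIs. Of these Aen, a p53-induced nuclease gene, had 29.7 and 80.3 CPM on 5 and 50 UMIs (ratio 2.71, 1.09 to 8.70), Mdm2, the p53 feedback inhibitor, 59.3 and 93.2 CPM (1.57, 0.796 to 3.45), and Bax, a cell death gene, 89.0 and 38.6 CPM (0.433, 0.218 to 0.888). Cdkn1a had 0 and 3 UMIs. The list median was 0.33, with 3 past 1.5-fold higher and 2 lower, against 16.4% and 14.4% over all genes. It was -0.04 with doublets removed and 1.15 with at least 3 dorsal genes, so its direction rests on the cells taken. Among 14 hypoxia genes the median was -0.13. Vegfa, the endothelial growth factor gene, had 1 UMI in wild-type and 45 in Usb1-null (5.93 and 72.3 CPM), while the other neural cells had 45.7 and 85.1 CPM. The wild-type value rests on that single UMI. Tpi1, a glycolysis gene, had 225.5 and 119 CPM (0.527, 0.352 to 0.801). Among 19 cell cycle genes the median was -0.06, with 3 past 1.5-fold higher and 5 lower, beside 16.4% and 14.4% of all genes. The mitotic genes Plk1 (65.3 and 17.7 CPM), Ccnb2 (71.2 and 24.1 CPM) and Cdc20 (65.3 and 25.7 CPM) had intervals below 1, while the interval of the proliferation marker Mki67 lay above it (1.17 to 2.25). Bub1 had 136.5 and 137 CPM and Aurka 71.2 and 72.3 CPM. Of 8 Notch genes the median was 0.01, and no interval left out 1.

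The genes with the largest ratios were mostly not dorsal genes. Of the 10 lowest ratios, 8 belonged to ribosomal protein genes, among them Rps4x of the X chromosome with 522 and 157 CPM (0.3015, 0.224 to 0.407) and Rps2 with 688 and 321 CPM (0.467, 0.3695 to 0.592). The others were Prkcsh and the microRNA host gene Mir99ahg. In other neural cells the log2 ratios of Rps4x and Rps2 were -0.85 and -0.80, against -1.72 and -1.10 in the selected cells. The 10 highest were Il33, Lars2, Cmss1, Wdpcp, Camk1d, Nup153, Hist1h1e, Tmeff1, Cnot6 and Ube3a. Cmss1 had 1383 and 4673 CPM (3.38, 2.96 to 3.88) and Lars2, a mitochondrial tRNA ligase gene, 172 and 588 CPM (3.42, 2.34 to 5.175). Their log2 ratios over all cells of the libraries were 1.67 and 2.05, near the 1.76 and 1.77 of the selected cells. Wdpcp had 47.5 CPM on 8 UMIs and 153 CPM (3.215, 1.57 to 7.66), and Tmeff1 65.3 CPM on 11 UMIs and 167 CPM (2.56, 1.37 to 5.29). These 2 differed less over all cells, with log2 ratios of 0.01 and 0.27. In other neural cells Wdpcp had 94.15 and 101.3 CPM and Tmeff1 199.9 and 233.1 CPM, so the wild-type selected cells held the low values.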

How the data were processed

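Per the labels, single-cell suspensions of whole embryos were run on 10x 3′ v3.1 chemistry. The authors deposited raw UMI counts as 1 matrix per library, with genes by barcodes, from Cell Ranger and the mm10 build. The labels give Cell Ranger 2.1.1 and the file headers 6.1.2. The labels also name nuclear RNA as the molecule.

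Cells with 200 to 6000 detected genes were kept and selected on detection of the 13 genes of the rule, without clusters. The members, gene lists and comparisons were chosen with earlier results of these data known. UMIs were summed per library and given as CPM, and log2 ratios had 1 CPM added. Intervals were exact (Clopper-Pearson for shares, Poisson for levels, conditional binomial for ratios). Named genes were up to 4 per list by either ratio among genes with at least 20 UMIs, the 10 highest and 10 lowest between libraries at 100 UMIs or more, and the 10 highest over other neural cells at 50 UMIs or more, while the 10 lowest over other neural cells and genes at or near 0 were added after seeing values. Unnamed (Gm, Rik, clone), Y-linked and mitochondrial genes and Xist were left out between libraries. Doublets were called with Scrublet (Scanpy 1.11.5, expected 10%) and removed only in an alternative. NumPy 2.4.6, SciPy 1.17.1 and pandas 2.3.3 were used. Alternatives were other depths, thresholds, filters, totals and pseudocounts. The standardisation over depth bins and both removals of cells with endothelial or cardiomyocyte genes were chosen after seeing the data. The scripts were tested on simulated data. Some genes that the rule names are not reported here.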

Additional observations from a re-analysis of the deposited data

How the results depend on the processing

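No paired analysis was possible because each genotype had 1 library. The ratio of shares, 2.68 as reported, was 1.01 with cells thinned to 1500 UMIs, 1.47 with a second draw at 1000 UMIs, 8.50 with at least 3 dorsal genes, 1.79 among cells with at least 1000 detected genes and 1.24 with the wild-type spread over depth bins. Genes past 1.5-fold between the libraries were 167 higher and 127 lower of 2081 as reported, or 8.02% and 6.1%. With at least 3 dorsal genes they were 110 and 46 of 497, or 22.1% and 9.26%. With cells thinned before selection they were 5 and 1 of 10 genes tested. They were 470 and 365 of 4056 at 50 UMIs, and 44 and 49 of 785 at 200 UMIs. Against other neural cells, 235 (3.18%) of 7382 genes were higher and 146 (1.98%) lower in both libraries. Against the 20 wild-type and 49 Usb1-null ventral cells in their place, 716 genes were higher and 317 lower. With so few ventral cells the larger counts are not read as a greater difference. With thinned cells the Lmx1a class held 84.6% of wild-type and 74.3% of Usb1-null selected cells, the Olig3 class 7.69% and 2.86%, and the third class 7.69% and 22.9%. Of 13 thinned wild-type and 35 thinned Usb1-null cells, 7.69% and 11.4% were Otx2, 15.4% and 11.4% Hox groups 1 to 3, 38.5% and 20% groups 4 to 13, and 38.5% and 57.1% neither, so that the order of the libraries turned for Hox groups 1 to 3 and for neither. The cause of these shifts was not tested. The median of the Wnt ligand list kept its sign in 6 of 6 alternatives (-0.76 to -0.06), and that of the dorsal transcription factors in 4 of 6 (-0.12 to 0.20), of Notch in 3 of 6, and of the p53, hypoxia and cell cycle lists in 5 of 6 each. All 21 alternatives of the whole-library dorsal levels stayed within their counting intervals. Depth limits every class of few cells.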

Other observations

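Marker class and position class crossed in every combination in Usb1-null. Of the Lmx1a class, 8 of 49 wild-type cells (16.3%) and 25 of 119 Usb1-null cells (21.01%) had Otx2 without a Hox gene, and 20 (40.8%) and 38 (31.9%) had Hox groups 4 to 13. In the Olig3 class, 0 of 13 wild-type and 2 of 18 Usb1-null cells had Otx2 without a Hox gene. The intervals of these shares overlapped between the libraries.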
